A study of Mus musculus with 12 samples.

Results

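Mouse cortical cultures carrying a miR-29 lentivirus were compared with cultures carrying an empty lentivirus, both without an ischemic insult. The 5 libraries used, of 12 in the series, were the 3 sham-miR-29 libraries and sham-empty replicates 1 and 2. The count column of sham-empty replicate 3 was left out because it did not behave as read counts: it summed to 22859, against 1337564 to 6616920 in the other columns, and its Spearman correlation with them across genes was 0.0438 to 0.0978. All cultures came from C57BL6 embryos aged E16.5-E17.5 and were infected on day 6 in vitro (DIV6). Infection was done 2 times at a multiplicity of 1, for a total of 2, with a virus expressing miR-29c or with the empty control virus. The cell types that express the virus are not given in the labels. On DIV14 the sham cultures were rinsed in the buffer used for oxygen-glucose deprivation (OGD) but kept in normal oxygen. The other 6 libraries used for a comparison below came from sister cultures that had 3 h of OGD, a culture model of ischemia, and 4 h of recovery. Replicates were cultures dissected on separate days.

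MicroRNAs are short RNAs that guide Argonaute proteins to messenger RNAs, mostly through pairing of the seed, bases 2 to 8 of the microRNA, with a site in the 3′ untranslated region (3′UTR). Paired messages are translated less and are often degraded. The miR-29 family is abundant in mature brain, in neurons and astrocytes, and is known for targets among collagens, DNA methylation and demethylation enzymes and cell death genes of the BH3-only class.

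The mature sequences are shown because all family members share the seed that defines the sites counted here (seed in capitals, 5′ to 3′, from RefSeq, GRCm38.p6). miR-29c-3p, the member in the virus, lies at chr1:195037600-195037621 on the plus strand. miR-29a-3p lies at chr6:31062673-31062694 and a copy of miR-29b-3p at chr6:31063025-31063047, both on the minus strand.
mmu-miR-29c-3p: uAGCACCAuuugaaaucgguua
mmu-miR-29a-3p: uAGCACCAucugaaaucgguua
mmu-miR-29b-3p: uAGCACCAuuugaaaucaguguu

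An 8mer site is TGGTGCTA, a 7mer-m8 site is TGGTGCT without the last A, and a 7mer-A1 site is GGTGCTA, all read on the sense strand of the longest 3′UTR that GENCODE M21 (GRCm38) annotates for a gene. Each gene was put in its strongest class, so the classes do not overlap. The sites below are 3′UTR windows from targets that the results return to, with the match in capitals. Tdg (chr10:82649663-82649684, plus strand), Fbn1 (chr2:125301173-125301194, minus strand), Dnmt3a (chr12:3911391-3911412, plus strand), Tet2 (chr3:133466173-133466194, minus strand), Mcl1 (chr3:95661845-95661866, plus strand) and Nav3 (chr10:109682236-109682257, minus strand) carry an 8mer. Slc1a2 (chr2:102788457-102788478, plus strand) and Pik3r1 (chr13:101684503-101684524, minus strand) carry a 7mer-m8.
Tdg: tcatgcattttccaTGGTGCTA
Fbn1: ttctgttgtctgttTGGTGCTA
Dnmt3a: ccaggggaggtagcTGGTGCTA
Tet2: gtgttaacattaaaTGGTGCTA
Mcl1: tagagtcttaaccaTGGTGCTA
Nav3: ttaggagatatcatTGGTGCTA
Slc1a2: ttcagcatcaaggaaTGGTGCT
Pik3r1: agaggcctttaaccaTGGTGCT

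The sham libraries were shallow. The empty-virus libraries held 1337564 and 2389020 counts and the miR-29 libraries 2989703, 2586242 and 3849290. Rows of the mitochondrial genome took 78.3% to 84.1% of these sums, but neighbouring rows can count a read more than once, so the shares are of counts. The median count per gene was 9 and 16 in the sham-empty libraries and 24, 24 and 35 in the sham-miR-29 libraries. Every sham-empty library was thus shallower than every sham-miR-29 library. The part of depth in the differences below was not tested. Spearman correlations across genes were 0.855 between the sham-empty libraries, 0.885 to 0.925 among the sham-miR-29 libraries, and 0.856 to 0.904 between the groups, so the groups did not separate. The table held 0 rows for miR-29 genes, so the level of miR-29 itself was not analysed here.

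No gene was called between the viruses in sham cultures. With edgeR's quasi-likelihood test, 0 of 12119 genes tested (0% of genes) had an adjusted p under 0.05, and the lowest adjusted p was 0.9995. At an unadjusted p under 0.05 there were 405 genes (3.34%), 187 higher (1.54%) and 218 lower (1.8%) with miR-29, where chance gives about 606. DESeq2 and limma-voom also called 0 genes, with 149 genes under an unadjusted p of 0.05 in DESeq2. All differences named below are therefore descriptions of these libraries, and no gene passed the test. Log2 fold changes (miR-29 minus empty virus) are given with their standard error, and levels are counts scaled by library size and TMM factor (CPM), in the order of sham-empty replicates 1 and 2 and sham-miR-29 replicates 1 to 3.

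Most fold changes were within their error. The median log2 fold change was -0.003, which the scaling holds near 0, with an interquartile range of -0.25 to 0.24. Of 12119 genes, 6018 lay above 0, and 305 (2.52%) differed by more than 2-fold. The median standard error was 0.385. The size that could be seen depended on counts: when genes were split into 5 groups by count, then between the lowest and the highest group (median mean count 9 and 80.6), the median half-width of the 95% interval went from 1.15 to 0.54 on the log2 scale. For 5019 genes (41.4%) the whole 95% interval lay within 2-fold in either direction. For the others a 2-fold difference was not excluded at this depth. The 2 sham-empty values lay entirely below the 3 sham-miR-29 values in 1283 genes (10.6%) and entirely above them in 1441 (11.9%), together 22.5%.

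**Figure D1:**
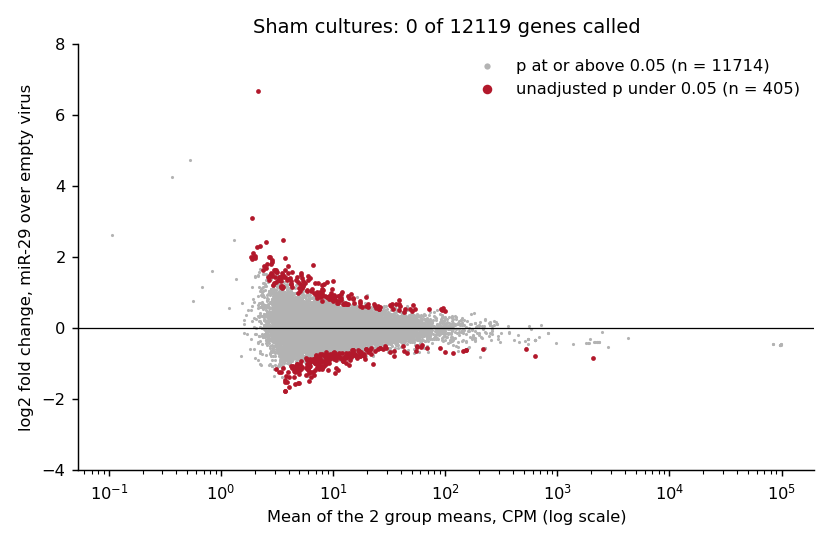
Log2 fold change of miR-29 against empty virus in sham cultures (vertical axis) against mean level (horizontal axis, CPM on a log scale) for the genes tested, with genes at an unadjusted p under 0.05 coloured. Points scatter around 0 and widen at low levels; 305 of 12119 genes lie beyond 2-fold and 0 were called. For a gene with no count in the sham-empty libraries, such as Nfkb1, the plotted value depends on the prior count.

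Genes with a miR-29 seed site were centred at the same place as genes without one. Of 10100 genes tested with an annotated 3′UTR, 377 (3.73%) carried an 8mer, 1444 (14.3%) a 7mer-m8 as the strongest site, 378 (3.74%) a 7mer-A1 and 7901 none. The median log2 fold change was -0.001 for 8mer genes, 0.03 for 7mer-m8 genes, -0.008 for 7mer-A1 genes and 0.005 for genes without a site. Genes with at least 2 sites of the 8mer or 7mer-m8 kind (322 genes) had a median of 0.04. Of the 8mer genes, 187 lay above 0, 9 were higher and 9 lower at an unadjusted p under 0.05 (4.77%, beside 3.34% of all genes), and 0 were called.

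The 8mer genes did not separate the viruses library by library either. Relative to genes without a site, their median deviation from the mean of the sham libraries was 0.02 and -0.046 in the empty-virus libraries and -0.045, 0.11 and -0.085 in the miR-29 libraries, in replicate order and on the log2 scale. The groups overlapped, with sham-miR-29 replicate 2 highest and replicate 3 lowest. The difference of the medians, -0.006, was smaller than the SD of 0.105 between the sham-miR-29 libraries. Across the alternative processings it ran from -0.049 (without sham-miR-29 replicate 2) to 0.058 (without sham-miR-29 replicate 3), and it was also above 0 with the replicate block (0.04), so its sign depends on single libraries and on the processing. Site genes have longer 3′UTRs (median 3028 nt for 8mer genes, 1234 nt without a site). Within the third of genes with the longest 3′UTRs the medians were 0.006 for 254 8mer genes and 0.02 for 2030 genes without a site. Sham-miR-29 replicate 2 was also the library in which the longest genes, 79.1 kb and over, were highest (0.23, against -0.15 in replicate 3). The part of gene length in the spread between these libraries was not tested.

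**Figure D2:**
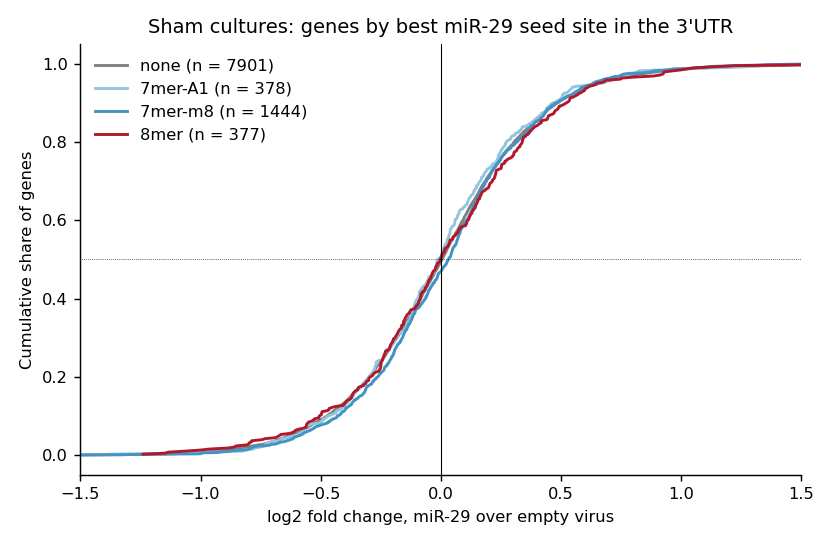
Cumulative share of genes (vertical axis) against the log2 fold change of miR-29 against empty virus in sham cultures (horizontal axis), for genes grouped by the strongest miR-29 site in their 3′UTR. The 4 curves nearly coincide; class medians run from -0.008 to 0.032.

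Genes known as miR-29 targets from earlier work were mostly within their error of 0. Of 37 on the list, 30 were tested: 13 were lower and 17 higher with miR-29, the median log2 fold change was 0.11 (all genes -0.003), and 1 gene, Tdg, had an unadjusted p under 0.05. Of the 30, 16 carry an 8mer, 11 a 7mer-m8, 2 a 7mer-A1 and 1 none, and for 16 the 95% interval lay within 2-fold. The groups did not overlap for 4 higher and 4 lower targets, beside 22.5% of all genes. Summed CPM over the list was 665.4 and 631.4 in sham-empty and 632.1, 699.1 and 617.6 in sham-miR-29, so neither group stood above the other. In 9 targets a neighbouring gene held over 0.5 of the target's count. The counts of such genes can hold the neighbour's reads, and the neighbour is named beside each such gene below.

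Among enzymes of DNA methylation and demethylation, Tdg was lower and the TET genes were not. Tdg encodes thymine DNA glycosylase, which excises oxidised methylcytosine, and its gene spans chr10:82629828-82650799. Its level was 3.98 and 4.63 CPM with the empty virus and 1.52, 1.54 and 2.57 CPM with miR-29. All 3 miR-29 libraries lay below both empty-virus libraries, a log2 fold change of -1.15 ± 0.53 that was not called and that rests on counts of 4 to 10 per library. Tet1, a dioxygenase that starts demethylation, was at 5.97 and 5.79 CPM against 9.10, 10.4 and 7.71 CPM. Its miR-29 libraries were all the higher ones (0.61 ± 0.38, not called). Tet2 was at 8.95 and 13.3 CPM against 14.03, 18.83 and 11.31 CPM, and the groups overlapped (0.34 ± 0.35). Tet3 (0.34 ± 0.35) overlapped as well, with counts possibly shared with Bola3. Dnmt3a, the de novo methyltransferase, was at 55.7 and 49.2 CPM against 42.1, 59.2 and 37.5 CPM. Sham-miR-29 replicate 2 held the highest Dnmt3a value and replicate 3 the lowest (-0.18 ± 0.23). Of all 10 such enzymes tested (14 listed), 6 lay above 0, with a median of 0.08.

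Collagen and other matrix targets went in both directions within wide errors. Col1a2, a chain of type I collagen, was at 1.99 and 5.79 CPM against 2.27, 4.23 and 2.06 CPM (-0.63 ± 0.59). Col3a1, type III collagen, was at 7.96 and 13.9 CPM against 10.2, 9.61 and 12.3 CPM (-0.08 ± 0.33). In both, the sham-empty libraries themselves were the lowest and the highest of the 5. Col4a1 (-0.49 ± 0.32) and Col4a2 (0.17 ± 0.40), the head-to-head basement membrane collagens, can share counts with each other. Fbn1, fibrillin, was at 2.98 and 1.74 CPM against 3.03, 6.92 and 4.89 CPM. The 3.03 CPM of sham-miR-29 replicate 1 was nearly that of the nearest empty-virus library, and the difference was 1.14 ± 0.65. The laminin chain Lamc1 (0.14 ± 0.37) and the matrix protein Sparc (0.02 ± 0.37) were close to 0. Of 21 extracellular matrix genes tested (35 listed), 12 lay above 0, with a median of 0.02 and none at an unadjusted p under 0.05.

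Targets in cell death and survival signalling lay on both sides of 0. Mcl1, an anti-apoptotic BCL2 protein, was at 29.8 and 34.1 CPM against 29.6, 25.4 and 30.3 CPM, with overlapping groups (-0.18 ± 0.22). The BH3-only genes, whose proteins promote cell death, were at -0.15 ± 0.41 for Bbc3 (Puma), 0.19 ± 0.27 for Hrk and 0.37 ± 0.44 for Bcl2l11 (Bim). Counts of Bbc3 can be shared with Sae1 and those of Hrk with Rnft2. Pik3r1, the regulatory subunit of PI3-kinase, was at 42.8 and 36.5 CPM against 36.0, 31.1 and 25.2 CPM. All 3 Pik3r1 values with miR-29 were below those with empty virus, one of them narrowly (-0.36 ± 0.24). The phosphatase gene Ppm1d was at -0.22 ± 0.41 (counts possibly shared with Bcas3) and the small GTPase gene Cdc42 at -0.14 ± 0.22. Of 13 BCL2 family genes tested (17 listed), 7 lay above 0, 1 was lower at an unadjusted p under 0.05 and the median was 0.09. That gene was Bnip3l, a mitophagy receptor, at 23.9 and 23.7 CPM against 17.1, 13.4 and 16.46 CPM (-0.60 ± 0.27, not called). Its groups did not overlap, and its annotated 3′UTR holds none of the 3 site types.

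Targets with neuronal, metabolic or secreted roles lay mostly a little above 0. Hdac4, a histone deacetylase that shuttles between nucleus and cytoplasm in neurons, was at 24.9 and 19.7 CPM against 20.5, 38.0 and 21.6 CPM (0.27 ± 0.34). Nav3, a neuron navigator, was at 22.9 and 19.1 CPM against 23.9, 31.5 and 22.4 CPM (0.31 ± 0.30). In both genes the groups overlapped and sham-miR-29 replicate 2 was highest. Bace1, the beta-secretase that cleaves amyloid precursor protein, was at 16.9 and 15.1 CPM against 20.1, 25.4 and 20.1 CPM (0.46 ± 0.27, counts possibly shared with Rnf214), with all miR-29 libraries higher. The growth factors Igf1 (0.34 ± 0.57) and Vegfa (0.36 ± 0.43), the iron regulator Ireb2 (0.15 ± 0.46, Hykk) and the lactate transporter Slc16a1 (0.08 ± 0.30) overlapped between groups. So did the sterol regulator Insig1 (-0.13 ± 0.23) and the mitochondrial channel Vdac1 (-0.12 ± 0.21), the target without a site.

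**Figure D3:**
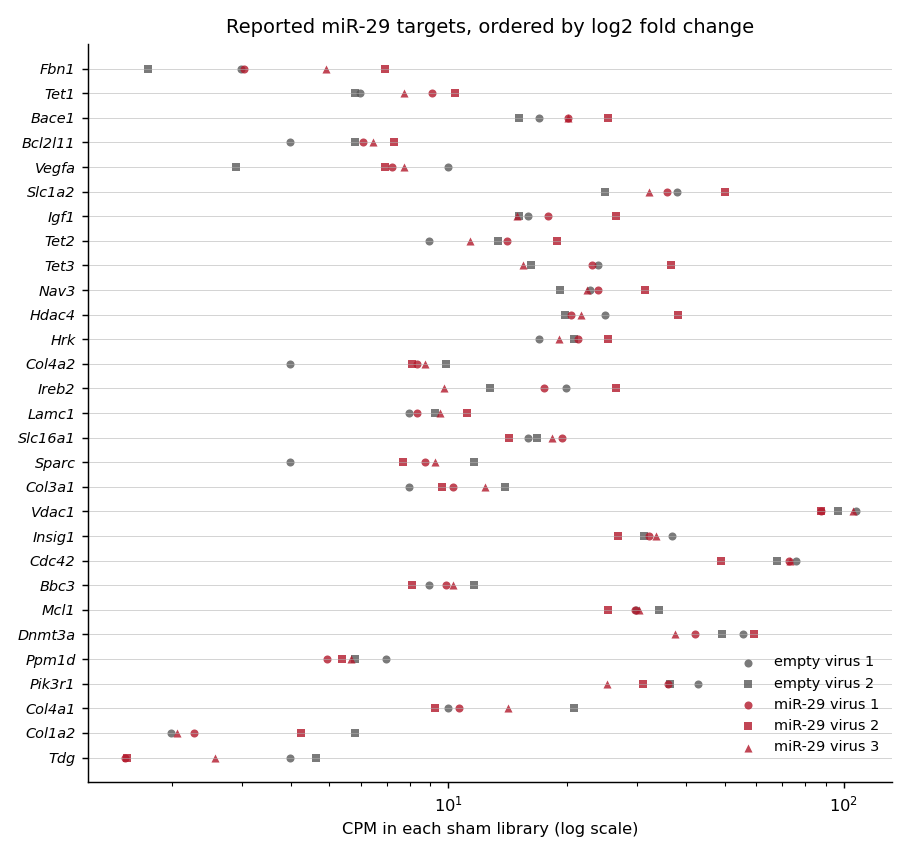
Level of the reported miR-29 targets described in the text (horizontal axis, CPM on a log scale) in each sham library, ordered from the highest to the lowest log2 fold change of miR-29 against empty virus; grey marks are the 2 empty-virus libraries, red marks the 3 miR-29 libraries, and the shape is the replicate number. Red marks lie all above the grey ones for 4 targets and all below for 3, one of which is Tdg, at the bottom.

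Glutamate handling genes had overlapping values under the viruses in most cases. Slc1a2 encodes the main astrocyte glutamate transporter (GLT-1), and was at 37.8 and 24.9 CPM with empty virus and 35.64, 49.96 and 32.14 CPM with miR-29. The groups overlapped, and the log2 fold change was 0.35 ± 0.27 with a 95% interval of -0.22 to 0.92. Slc1a3, the other astrocyte transporter (GLAST), was at 20.9 and 24.9 CPM against 29.6, 21.1 and 30.3 CPM, also overlapping (0.23 ± 0.27). Of 18 glutamate transport and metabolism genes tested (21 listed), 14 lay above 0, with a median of 0.15 and none at an unadjusted p under 0.05. The groups did not overlap in 2, both higher, a share near the 10.6% of all genes: Got1 (0.29 ± 0.24, counts possibly shared with Cnnm1) and Got2 (0.38 ± 0.30), the cytosolic and mitochondrial aspartate aminotransferases. Of 14 ionotropic glutamate receptor genes tested (15 listed), 7 lay above 0 and the median was -0.03. The NMDA receptor subunit Grin2b was at 70.6 and 74.7 CPM against 62.94, 103.4 and 52.97 CPM. Its sham-miR-29 libraries spanned both sides of the empty-virus values, replicate 2 again being highest (0.00 ± 0.36).

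Immediate early genes, transcription factors and synaptic genes that neuronal activity induces, leaned higher with miR-29. Of 21 tested (24 listed), 16 lay above 0, the median was 0.25, 2 had an unadjusted p under 0.05 and 0 were called. Groups did not overlap in 6, all higher (10.6% of all genes did so). Summed CPM was 288.4 and 340.3 with empty virus and 356.1, 374.3 and 416.6 with miR-29. Every miR-29 sum was above both others, but a few genes weight the sum: the median deviation over members was -0.28 and 0.0 against -0.04, 0.11 and 0.19, and there the groups overlapped. Fosl2, a partner of JUN in AP-1, was at 28.8 and 27.2 CPM against 36.0, 59.6 and 50.4 CPM, apart in all libraries (0.80 ± 0.26). The orphan receptor gene Nr4a3 was at 5.97 and 14.5 CPM against 15.2, 28.4 and 16.2 CPM, where sham-empty replicate 2 nearly reached the lowest miR-29 library (0.85 ± 0.38). Arc, which regulates AMPA receptor traffic, was at 7.96 and 12.2 CPM against 15.9, 15.4 and 14.7 CPM, again without overlap (0.55 ± 0.34). Npas4 (0.44 ± 0.30) and Nr4a1 (0.44 ± 0.33, counts possibly shared with 9430023L20Rik) also did not overlap, whereas Fos (0.55 ± 0.29) and Egr1 (0.57 ± 0.44) did. Nr4a2 lay the other way at -0.74 ± 0.44. The list median was 0.10 without sham-empty replicate 1 and 0.49 among genes alone in their region. Of 15 delayed activity-regulated genes tested (16 listed), 6 lay above 0 and the median was -0.08.

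The NF-kB list was thinly covered, with 4 of 16 genes tested, all above 0 and 0 called. Nfkb1, which encodes the p105 precursor of the p50 subunit, had counts of 0 and 0 with empty virus and 13, 10 and 16 with miR-29. Against a limit of 3 counts over the sham-empty group, the Nfkb1 ratio was at least 3.89. That limit covers counting error only, not variation between libraries. Nfkb1 had the smallest unadjusted p of all genes (0.000654, edgeR's quasi-likelihood test across all genes), which is why it was picked. Its adjusted p was 0.9995, so it was not called. Nfkb2, the p100 precursor, was at 14.9 and 20.3 CPM against 33.0, 26.9 and 26.2 CPM without overlap (0.67 ± 0.31, counts possibly shared with Psd). Icam1, an adhesion molecule that NF-kB induces, was at 0.57 ± 0.32 (Icam5). Nfkbie was at 0.10 ± 0.21 (Hsp90ab1), so 3 of the 4 members can hold a neighbour's reads. Of the interferon-stimulated genes, a known response to viral nucleic acid, 4 of 27 were tested. Eif2ak2 (PKR) was at -0.28 ± 0.31 (Gpatch11) and Irf7 at 0.48 ± 0.47 (Phrf1), and no member had an unadjusted p under 0.05. The classical members Ifit1, Isg15 and Mx1 were not analysed here.

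Genes of the machinery that microRNAs use overlapped between the viruses. Of 16 genes of microRNA processing and silencing tested (18 listed), 5 lay above 0, the median was -0.07, none had an unadjusted p under 0.05, and in none did the groups separate. Ago2, the slicing Argonaute, was at 27.9 and 20.3 CPM against 33.4, 44.6 and 23.4 CPM (0.51 ± 0.29, counts possibly shared with Chrac1). Dicer1, which cuts hairpin precursors, was at 12.9 and 6.95 CPM against 8.72, 8.46 and 9.77 CPM (-0.05 ± 0.37). In both the groups overlapped. The helicase gene Ddx6, which acts in repression by Argonaute, was at 0.64 ± 0.33.

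Mitochondrially encoded, respiratory chain and ribosomal protein genes leaned lower with miR-29, again with 0 called. Glycolytic genes did not, with 10 of 21 above 0 and a median of -0.04. All 13 mitochondrially encoded protein genes lay below 0 (median -0.33), and in 12 the groups were apart and lower (11.9% of all genes). These rows can hold the same reads and are not separate measurements. The median deviation over the 13 genes was 0.28 and 0.13 with empty virus and -0.03, 0.12 and -0.51 with miR-29. Sham-miR-29 replicate 2 was thus nearly level with sham-empty replicate 2. For mt-Co3 these 2 libraries were at 667.6 and 670.8 CPM, while for mt-Nd1 they were further apart (2020 and 2562 CPM). Summed CPM over the 13 genes was 16580 and 15280 with empty virus and 13570, 13330 and 10200 with miR-29. The share of all counts in mitochondrial rows moved the same way, 82.7% and 84.1% against 80.7%, 78.3% and 78.6%, and its part in this difference was not tested. Of 32 nuclear-encoded respiratory chain genes tested (33 listed), 8 lay above 0, the median was -0.15 and groups were apart and lower in 9 (11.9% of all genes). Their summed CPM was 1745 and 1792 against 1675, 1349 and 1745, so the lowest value was that of sham-miR-29 replicate 2 and the others were alike. Without that library the list median was -0.05. Uqcrfs1, the Rieske iron-sulfur protein of complex III, was at 31.8 and 38.8 CPM against 28.1, 19.2 and 25.2 CPM, without overlap (-0.56 ± 0.25). Ndufb3, of complex I, was at 15.9 and 9.84 CPM against 7.96, 3.84 and 8.74 CPM (-0.82 ± 0.39).

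Ribosomal protein genes showed the same library pattern. Of 34 tested (43 listed), 13 lay above 0, the median was -0.175, and groups were apart and lower in 10 (11.9% of all genes) and higher in 1 (10.6%). Summed CPM was 994.6 and 881.4 with empty virus and 863.8, 624.9 and 819.2 with miR-29, with replicate 2 far below the rest. The list median was -0.05 without replicate 2, and 0.05 among the members alone in their region. Rpl7, of the large subunit, was at 13.92 and 21.99 CPM against 10.6, 8.46 and 11.8 CPM, without overlap (-0.83 ± 0.31). Rpl30 (-0.98 ± 0.31) and Rpl23 (-0.76 ± 0.30) were the other members with an unadjusted p under 0.05, with counts possibly shared with Matn2 and Snora21. Ribosomal protein genes are mostly short, and sham-miR-29 replicate 2 had the lowest median deviation among the shortest genes, those up to 5.22 kb (-0.13, against 0.03 to 0.07 in the other 4 libraries). Ribosomal protein genes also have many processed pseudogenes, whose reads cannot be assigned from the table. The part of length in these values was not tested.

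Genes of the p53 pathway were lower in most members. Of 12 tested (15 listed), 3 lay above 0, the median was -0.33 and groups did not overlap in 7, all lower (11.9% of all genes). None had an unadjusted p under 0.05. Summed CPM was 166.1 and 161.5 with empty virus and 153.6, 137.2 and 134.7 with miR-29, with every miR-29 library below both others. The list median kept its sign with each library left out (-0.57 to -0.29), but it was 0.51 among the few members alone in their region. Cdkn1a (p21), the cell cycle inhibitor that p53 induces, was at 9.95 and 7.52 CPM against 6.45, 6.92 and 4.89 CPM (-0.50 ± 0.38). Phlda3, a gene that p53 induces, was at 4.97 and 5.79 CPM against 3.79, 2.69 and 3.60 CPM (-0.68 ± 0.45). Both genes stood apart between groups by a few counts. Trp53 itself was at -0.76 ± 0.56 (counts possibly shared with Atp1b2), Mdm2, its ubiquitin ligase, at -0.32 ± 0.33 (Cpm) and the pore-forming Bax at -0.33 ± 0.26 (Gys1). Sesn1 (-0.53 ± 0.34, Armc2) and the exonuclease gene Aen (-0.45 ± 0.38) completed the 7. Replication-dependent histone genes, whose messages end in a stem-loop, had a median of -0.25 over 14 tested (18 listed), with 5 above 0 and groups apart and lower in 4 (11.9% of all genes). The median deviation over histone genes was 0.42 and 0.01 with empty virus and 0.02, -0.27 and 0.06 with miR-29, so the groups overlapped. The list median was -0.03 without sham-empty replicate 1, -0.06 without sham-miR-29 replicate 2 and -0.54 without sham-empty replicate 2.

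Cell type markers showed the cultures to be neuronal with glia. All 12 neuron markers were tested, with a summed CPM of 1002 and 956.1 under empty virus and 950.6, 1131 and 939.1 under miR-29, so the groups overlapped. Their median log2 fold change was 0.12. Tubb3, a neuronal tubulin, was at 0.48 ± 0.23 with counts possibly shared with Gm20388. Excitatory neuron markers (11 of 12 tested) summed to 101.3 to 103.4 CPM against 95.14 to 124.9 CPM, and interneuron markers (9 of 12) to 427.7 to 494.3 CPM against 439.4 to 568.8 CPM. Tbr1, a deep-layer transcription factor, was at 3.98 and 7.52 CPM against 2.27, 3.84 and 2.31 CPM. Sham-miR-29 replicate 2 nearly reached sham-empty replicate 1 (-1.14 ± 0.52). Slc32a1, the vesicular GABA transporter, was at 9.95 and 9.84 CPM against 12.9, 25.4 and 15.4 CPM, all higher with miR-29 (0.84 ± 0.37).

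Among glia, astrocyte markers summed to 127.3 and 110.5 CPM with empty virus and 141.4, 138.7 and 129.1 CPM with miR-29. Each miR-29 sum was above both others, but the median deviation over members overlapped (0.12 and -0.16 against 0.15, -0.05 and 0.03). Of the 10 members tested 7 lay above 0, groups were apart in 1 higher and 1 lower (22.5% of all genes were apart), and the median was 0.29, or 0.06 without sham-empty replicate 2. Aqp4, the astrocyte water channel and the member apart and higher, was low in every library. It was at 1.99 and 1.74 CPM against 3.03, 5.00 and 2.83 CPM (0.94 ± 0.70). In RNA from whole cultures, fewer cells of a type and less RNA per cell cannot be told apart. Gfap and Sox9 were not analysed here. Microglia markers (5 of 12 tested, without P2ry12 and Tmem119) summed to 43.41 to 54.7 CPM against 39.97 to 49.67 CPM, and oligodendrocyte lineage markers (5 of 12) to 27.85 to 36.46 CPM against 30.36 to 40.11 CPM. Neural progenitor markers (5 of 10) summed to 43.76 and 63.66 CPM against 77.73, 44.2 and 86.65 CPM, with a median of 0.36. Mki67, a proliferation marker, had 1.43 ± 0.64 with overlapping groups and counts possibly shared with Ptpre. Mural markers had 4 of 12 tested and endothelial markers 0 of 10.

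**Figure D4:**
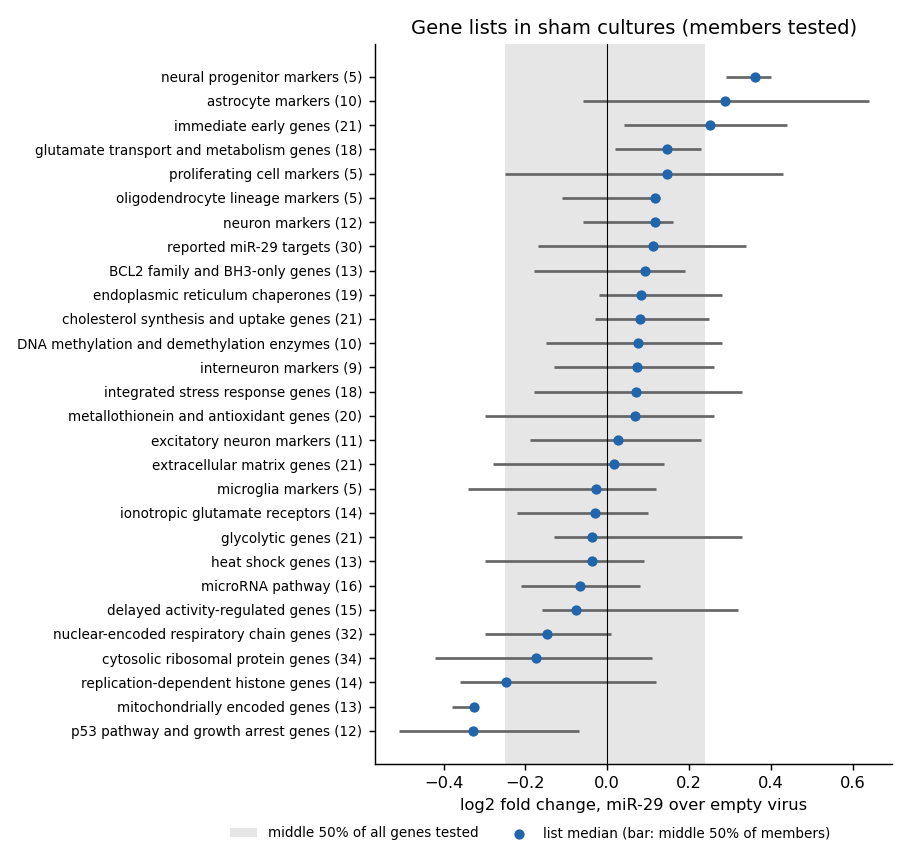
Median log2 fold change of miR-29 against empty virus in sham cultures (horizontal axis) for each gene list with at least 5 members tested, with bars for the middle 50% of members and a grey band for the middle 50% of all genes. Medians run from -0.33 (p53 pathway and mitochondrially encoded genes) to 0.36 (neural progenitor markers), beside -0.003 for all genes.

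The genes furthest apart were chosen by size. They had an unadjusted p under 0.05, at least 20 mean counts and groups that did not overlap. Genes in which a neighbour with a matched row held over 0.5 of the count were left out. This gave 34 genes higher and 30 lower, and the 12 largest in each direction follow. Since the sham difference chose them, their values are descriptions. Higher with miR-29 were Zmiz2 (1.07 ± 0.44), a coactivator of nuclear receptors, the COP9 signalosome subunit gene Cops7a (1.02 ± 0.44) and the transcription factor gene Deaf1 (0.99 ± 0.35). Sap30bp (0.99 ± 0.43), Tspyl5 (0.92 ± 0.36), the splicing factor gene Wbp11 (0.90 ± 0.30), the secretory kinase gene Fam20c (0.89 ± 0.39) and Rgs17 (0.88 ± 0.38), a regulator of G protein signalling, followed, with Nr4a3 and Slc32a1 described above. Igsf9b (0.93 ± 0.42), an adhesion molecule of inhibitory synapses, and AW549877 (0.91 ± 0.40) also belong here, although both carry an 8mer. Igsf9b was at 4.97 and 5.79 CPM against 9.10, 12.3 and 10.0 CPM. All of its miR-29 libraries were above both others. For Cops7a, Sap30bp, Rgs17 and AW549877 no annotated neighbour had a matched row, so sharing of counts could not be checked.

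Lower with miR-29 were Tomm7 (-1.04 ± 0.39), of the outer mitochondrial membrane import complex, Fam92a (-0.92 ± 0.39), the start codon selection factor gene Eif1 (-0.89 ± 0.31) and Tmem256 (-0.89 ± 0.30). Tomm7 was at 15.9 and 21.4 CPM against 12.5, 6.92 and 8.48 CPM. Eif1 was at 20.9 and 11.6 CPM against 8.72, 8.46 and 7.97 CPM. In both genes all miR-29 libraries lay below both empty-virus libraries, and for Eif1 they lay close together. Tmem9b (-0.85 ± 0.31), the ephrin receptor gene Epha4 (-0.84 ± 0.33), the leptin receptor gene Lepr (-0.83 ± 0.35), the mitochondrial ribosomal gene Mrpl15 (-0.80 ± 0.30), Wdr89 (-0.79 ± 0.27) and the zinc transporter gene Slc39a10 (-0.79 ± 0.31) followed, with Rpl7 above. Cdk8, the kinase of the Mediator complex, was at 3140 and 2155 CPM against 1564, 1554 and 1347 CPM (-0.83 ± 0.37). Its mean of 4058 counts over the sham libraries was far above that of the other genes listed here. Its annotated neighbour had no matched row, so sharing of counts could not be checked. Whether these reads come from Cdk8 messages was not tested. Sharing of counts could not be checked either for Tomm7, Tmem256, Tmem9b, Epha4, Rpl7, Mrpl15 and Slc39a10, whose annotated neighbours had no matched row. None of these lower genes has an 8mer, 7mer-m8 or 7mer-A1 in its annotated 3′UTR, and 78.2% of all genes tested with a 3′UTR have none either.

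Among the 5 smallest p-values, the 4 genes beside Nfkb1 rested on few counts or shared ones. Mycl, a MYC family gene, had counts of 0 and 3 against 17, 19 and 20, a ratio of 5.58 after library scaling, with a counting interval of 1.82 to 27.9. Its log2 fold change was 2.47, and 1.83 without sham-empty replicate 1. Sf3a1, a splicing factor gene (1.77 ± 0.46, counts possibly shared with Tbc1d10a), and 4731419I09Rik (1.46 ± 0.43, Dcst1) were higher. Gm26079 (-1.25 ± 0.34) lies within Ep400 and was lower. Nfe2l2 (NRF2), the antioxidant regulator, had counts of 3 and 0 against 11, 11 and 16, a ratio of 3.79 (1.2 to 19.2), in a region shared with Hnrnpa3. Without sham-empty replicate 2 its log2 fold change was 0.50, so the Nfe2l2 value rests on that library.

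Genes with an 8mer and an unadjusted p under 0.05 at 20 or more mean counts numbered 7 higher and 4 lower. Lower was Fh1, fumarate hydratase of the citric acid cycle, at 29.8 and 24.3 CPM against 15.2, 14.6 and 18.3 CPM (-0.73 ± 0.28). Its groups were well apart, and its site lies at chr1:175600776-175600797 on the minus strand.
Fh1: atagtgttaaggatTGGTGCTA

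Also lower were Trp53inp1 (-0.63 ± 0.29), a stress protein that p53 induces, the fatty acid elongase gene Elovl4 (-0.57 ± 0.26) and the proteasome gene Psma3 (-0.80 ± 0.32, counts possibly shared with 3110056K07Rik). Trp53inp1 was at 21.9 and 18.5 CPM against 12.5, 13.1 and 13.1 CPM, with the miR-29 libraries nearly equal to each other. Higher were Sprtn (1.03 ± 0.36, Egln1), a protease of DNA repair, Tmtc1 (0.80 ± 0.36), Anapc11 (0.69 ± 0.30, Pcyt2), Dgkd (0.63 ± 0.23, Usp40) and Map6 (0.60 ± 0.25), a microtubule stabiliser, with Igsf9b and AW549877 above. Map6 was at 19.9 and 20.3 CPM against 28.4, 33.4 and 29.6 CPM. An 8mer was thus found on both sides of 0.

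The virus effect in sham cultures was then set beside the virus effect after OGD, which uses 6 other libraries. After OGD, edgeR's quasi-likelihood test called 4501 genes (37.1%) between miR-29 and empty virus. The median size of the log2 fold change was 0.24 in sham and 0.58 after OGD, with median standard errors of 0.39 and 0.29, and 305 and 2800 genes lay beyond 2-fold. The test of the difference itself (the interaction of virus and OGD) called 1015 genes (8.38%), 572 with a higher and 443 with a lower fold change after OGD than in sham. The count depends on the libraries used. Without either sham-empty library it was far lower, but a single library was then left in that group. The fitted size moved little for Rgs17 (-2.34, and -2.31 and -2.41 without sham-empty replicates 1 and 2). For Eif1 it moved more (1.33, and 0.92 and 1.75). Leaving out sham-miR-29 replicates 1, 2 and 3 in turn gave counts of 647, 308 and 1288. With a trend of counts on gene length removed the count was 588. It was 177 among genes alone in their region and 1861 with the replicate number as a block. Of the 405 genes with an unadjusted p under 0.05 in sham, 170 (42.0%) had the same direction after OGD, where 48.3% of all genes did.

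Site genes and reported targets sat lower after OGD and not in sham. The median of 8mer genes was -0.316 after OGD against 0.05 for genes without a site, a difference of -0.366 beside -0.006 in sham. In the fit with the block and no length trend, it was -0.166 after OGD and 0.018 in sham. Whether the site effect itself differs between sham and OGD was not tested. Of the 30 reported targets, 13 were called lower and 5 called higher with miR-29 than with empty virus after OGD (37.1% of all genes were called). Their median was -0.36 (sham 0.11), and 6 had a called interaction (8.38% of all genes). Slc1a2 was 0.35 ± 0.27 in sham and -1.18 ± 0.23 after OGD, an interaction of -1.53 ± 0.36 (edgeR adjusted p = 0.0159). Hdac4 (-1.81 ± 0.44), Nav3 (-1.56 ± 0.39), Tet2 (-1.5 ± 0.44) and Bace1 (-1.35 ± 0.34) had interactions of the same sign, and Vdac1, which has no site, one of 0.98 ± 0.28. In the fit with the block and no length trend, the interaction was called for Bace1 (-1.48, edgeR adjusted p = 0.00737) and Vdac1 (1.01, 0.018), but not for Tet2 (-1.16, 0.0501), Slc1a2 (-0.91, 0.0714), Hdac4 (-0.69, 0.19) or Nav3 (0.07, 0.93). Tdg was -1.15 ± 0.53 in sham and -0.10 ± 0.37 after OGD, and its interaction was not called (1.04 ± 0.64).

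Respiratory chain and ribosomal protein genes went the other way. Their medians were -0.15 and -0.175 in sham, and 1.06 and 1.17 after OGD. Rpl7 was -0.83 ± 0.31 in sham and 1.20 ± 0.27 after OGD, with an interaction of 2.03 ± 0.41 (edgeR adjusted p = 0.0095). The corresponding interaction was 1.27 ± 0.34 for Uqcrfs1 and 1.84 ± 0.52 for Ndufb3. Ionotropic glutamate receptor genes had medians of -0.03 in sham and -1.58 after OGD. Fosl2 was 0.80 ± 0.26 in sham and -0.60 ± 0.22 after OGD (interaction -1.40 ± 0.34). In the fit with the block and no length trend, the interaction was called for Rpl7 (1.72, edgeR adjusted p = 0.00613), Ndufb3 (1.79, 0.0155) and Fosl2 (-1.56, 0.00402). It was not called there for Uqcrfs1 (0.93, 0.0628). The part of gene length in the list medians after OGD was not tested. Rpl7, Uqcrfs1, Ndufb3 and Fosl2 were chosen on their sham difference, so part of the contrast is fixed by the choice.

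**Figure D5:**
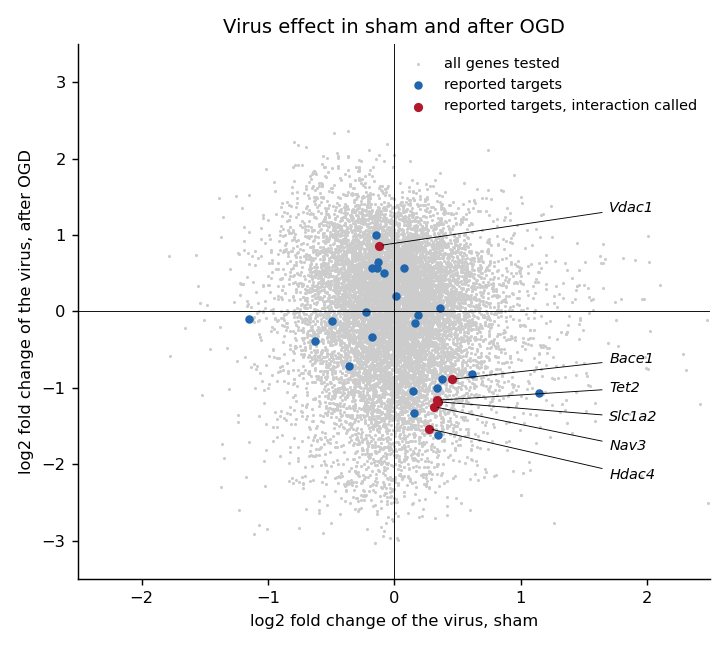
Log2 fold change of miR-29 against empty virus after OGD (vertical axis) against that in sham cultures (horizontal axis), from separate libraries, with the reported targets described in the text in colour and those with a called interaction in red and named. Slc1a2, Hdac4, Nav3, Tet2 and Bace1 lie right of 0 and below 0, and Vdac1 lies above 0. A few genes beyond the axes are not shown.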

How the data were processed

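The authors deposited read counts per gene symbol without normalization. The submitters' processing notes list mm10 as the build and, as tools, featureCounts 1.4.3-p1, STAR 2.5.0a and edgeR, giving no role to any. How genes were annotated, filtered and counted, and on which strand, is not given in the sources used here. Tables of the authors' own comparisons were deposited as well and not used here. Their columns per sample left unmapped numbered 0.

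Counts of 11 libraries in 4 groups were fitted together with edgeR 4.0.16 in R 4.3.3 (TMM scaling, filterByExpr, robust quasi-likelihood F test), with 7 residual degrees of freedom and a biological coefficient of variation of 0.208. The compared groups held n = 2 sham-empty and n = 3 sham-miR-29 libraries. The contrast was sham-miR-29 minus sham-empty, with Benjamini-Hochberg adjustment over 12119 of 12145 genes, and calls were made at 0.05. Standard errors come from the fold change and the square root of F, and intervals are 95%. Counting intervals and limits (3 counts) cover counting error only. Scripts were tested on simulated data.

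Of the symbols, 11948 matched GENCODE M21 (GRCm38), 592 through an older symbol, and 19 had become dates. Of those matched, 87.7% had an annotated neighbour on either strand, inside the gene or up to 10 kb downstream. A neighbour without a matched row could not be checked for shared counts. The mature microRNA sequences matched by name in 3 of 3 cases. The design text says replicate sets were dissected on distinct days, and same-numbered libraries were taken to share a day. The correlations of their deviations were -0.00495 (replicate 1) and -0.0898 (replicate 2) between the sham groups. Between sham-miR-29 and OGD-empty they were 0.0979, 0.232 and 0.175 (different numbers -0.194 to 0.0991). Over all pairs they were -0.0898 to 0.232 for the same number and -0.245 to 0.201 for different numbers. These ranges overlap, and the deviations of the 2 sham-empty libraries mirror each other. The correlations therefore cannot settle whether same-numbered libraries share a day. Whether cultures of a set came from separate animals is not given.

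Named genes were, by rule, the 12 largest differences in each direction (as defined in the text), the 5 smallest p-values, the reported targets tested, list members and 8mer genes at an unadjusted p under 0.05, and Slc1a2 and Slc1a3. Other list members were named after their values were seen. The members, the 32 gene lists and the rules were chosen with earlier results of these data known, so no list is independent evidence. The 15 alternatives were DESeq2 (1.42.0), its size factors, limma-voom (limma 3.58.1), no low-count filter, sham libraries only, a replicate block, a gene-length trend removed (lowess span 0.3) with and without the block, genes alone in their region, mitochondrial rows left out, and each of the 5 sham libraries left out. Results of a few genes are not reported here.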

Additional observations from a re-analysis of the deposited data

Results flagged for a closer look

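The effect of the miR-29 virus differed between sham and OGD cultures, by the interaction in edgeR's quasi-likelihood test, for 1015 of 12119 genes, and 29 of the genes named above were among them. Of these, 23 had been named from the sham difference itself, so their interaction is not independent of the choice. Values are log2 fold changes after OGD minus those in sham.

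Higher after OGD than in sham were genes of mitochondria, ribosomes and translation: Tomm7 at 2.30, Mrpl15 at 1.62, Uqcrfs1 at 1.27, Ndufb3 at 1.84, Fh1 at 1.84, Vdac1 at 0.98, Rpl7 at 2.03, Rpl30 at 1.79, Rpl23 at 2.04 and Eif1 at 1.33. So were Tmem256 at 2.13, Tmem9b at 1.75, Cdk8 at 1.85, Lepr at 1.93, Wdr89 at 1.81 and Gm26079 at 2.76.

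Lower after OGD than in sham were the reported targets Slc1a2 at -1.53, Hdac4 at -1.81, Nav3 at -1.56, Tet2 at -1.5 and Bace1 at -1.35. Igsf9b was at -1.79, Rgs17 at -2.34, Tmtc1 at -2.12, Fosl2 at -1.40, Sf3a1 at -2.23 and Mki67 at -2.49. For Nfkb1 and Nfe2l2, which had no count in at least 1 sham-empty library, the fitted size depends on the prior count, and the edgeR adjusted p of the interaction was 0.0122 and 0.0241.

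The calls depend on having both sham-empty libraries. Without either one, a single library is left in that group, and most of the 29 were no longer called. Without sham-miR-29 replicate 2, 15 were called. DESeq2 called 25, limma-voom 26, the fit with the length trend removed 19, and the fit with the replicate block and no length trend 22. The 22 leave out Eif1, Uqcrfs1 and Tmtc1, and the targets Tet2, Slc1a2, Hdac4 and Nav3.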

How the results depend on the processing

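The count of genes called in sham was 0 under all 15 alternatives, with a smallest adjusted p of 0.938 among the named genes. The count at an unadjusted p under 0.05 (405 genes, 187 higher and 218 lower) was 149 with DESeq2 (60 higher, 89 lower) and 612 in the fit with the replicate block and no length trend (282 higher, 330 lower). Limma-voom gave 97 higher. Among the 1467 genes tested that are alone in their region it was 55 (22 higher, 33 lower), where fewer genes were tested. The replicate block alone gave 510 (217 higher, 293 lower) and 0 called, and an 8mer difference of 0.04. Leaving out each sham library in turn gave 360 to 477 genes, 169 to 281 higher and 147 to 218 lower. The interaction count, 1015, rose to 1861 under the replicate block and dropped to 588 once the length trend was removed, to 177 among genes alone in their region, and ranged over 64 to 1288 without 1 sham library. The cause was not tested, apart from the smaller number of genes or samples. Where a sham-empty library was left out, the remaining one was assumed to vary like the other groups. Of the other values, for single genes and list medians, 1587 stayed within the replicate spread or on the same side of the test and 66 moved further, and none was called. Depth limits all of this: with 2 shallow sham-empty libraries, the 95% interval stayed within 2-fold for 41.4% of genes, and targets with few counts, such as Tdg, Fbn1 and Col1a2, are the least certain.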

Other observations

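Stress and lipid genes not described above were also near 0 in sham cultures, with 0 called. Of 21 cholesterol synthesis and uptake genes tested (22 listed), 13 lay above 0, with a median of 0.08. Groups did not overlap in 3, all higher with miR-29, beside 10.6% of all genes. Cyp51, which demethylates lanosterol, was at 0.35 ± 0.23 with counts possibly shared with Akap9. Of 19 endoplasmic reticulum chaperone genes tested (20 listed), 13 lay above 0 (median 0.08). Hyou1 was at 26.9 and 25.5 CPM against 31.9, 36.9 and 37.5 CPM, without overlap (0.44 ± 0.22, Slc37a4), whereas Hspa5 (BiP) was at -0.03 ± 0.25 (Rabepk).

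Integrated stress response genes (18 of 20 tested) had a median of 0.07, with Chac1, a glutathione-degrading enzyme, at 4.97 and 6.95 CPM against 9.10, 9.22 and 9.51 CPM (0.59 ± 0.35). Its 3 miR-29 libraries were alike and above both others. Heat shock genes (13 of 17) had a median of -0.04 and metallothionein and antioxidant genes (20 of 21) one of 0.07. Mt1 (-0.28 ± 0.29) and Mt2 (-0.36 ± 0.28), adjacent metallothionein genes, overlapped between groups. Glycolytic genes (21 of 22) had a median of -0.04. Pfkm, muscle phosphofructokinase, was at 27.9 and 35.3 CPM against 42.5, 39.6 and 54.5 CPM (0.52 ± 0.24, Asb8), and its groups did not overlap.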
